A study of Mus musculus with 6 samples.

Results

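Aminoacyl-tRNA biosynthesis is the pathway that joins each amino acid to its transfer RNA. Its members were taken as all genes that carry this KEGG term in the authors' deposited annotation and have a summed count of at least 60 over the 6 libraries. The term marked 44 of 17191 genes and all 44 met the minimum, with summed counts of 130 (Pars2) to 33252 (Nars), so the level requirement removed none of them. Every member also passed the filter on low counts before testing.

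RNA was sequenced from cells of tumours that CT26, a carcinoma line of the mouse colon and rectum, had formed under the skin of BALB/c mice, all female and 6 to 8 weeks old. Dosing began at tumour volumes of 100 to 200 mm3 and lasted 3 weeks. The control arm received vehicle and the other TP-18, an agent that the labels give by code name alone, orally at 50 mg/kg each day. Each arm has 3 libraries, whose total counts ran from 16371128 to 17597645. The labels describe the cells in conflicting ways, as macrophages sorted for CD11b, F4/80 and CD206, as cells taken with CD11b+ magnetic beads, and as the carcinoma line. Whether libraries come from different animals is not said, so a p-value here reflects only their own spread, in which technical variation may have a share. No genetic change is named in either group.

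Macrophage markers were abundant in both groups, with a summed level over 10 genes of 3898 to 8274 CPM with vehicle and 4348 to 6697 CPM with TP-18. Of the carcinoma markers, Epcam had 37 counts and Krt19 had 1 count over all libraries, while Krt20 had a mean of 436 CPM with vehicle and 415 CPM with TP-18. CPM is the count relative to the library's size after scaling by TMM factors, which were 0.924 to 0.962 in vehicle and 1.05 to 1.07 in TP-18 libraries. In bulk RNA such as this, fewer cells of a type and less RNA per cell cannot be told apart.

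An aminoacyl-tRNA synthetase recognises 1 amino acid and its tRNAs and joins them using ATP, and the charged tRNA then feeds the ribosome. For most amino acids mammalian cells keep separate enzymes for the cytosol and for the mitochondrion, the latter named with a final 2, and all of them are encoded in the nucleus. Several cytosolic enzymes are held in the multisynthetase complex by the scaffold proteins Aimp1, Aimp2 and Eef1e1. When tRNAs run uncharged, the kinase GCN2 (gene Eif2ak4) phosphorylates eIF2 and the transcription factor ATF4 is translated, and many cytosolic synthetase genes are known targets of ATF4. In macrophages such stress signalling is also engaged by secretory load and by amino acid depletion. By role, 19 members are cytosolic synthetases, 2 serve both compartments (Gars and Kars), 17 are mitochondrial and 6 convert an amino acid or its derivative on the tRNA.

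The DNA element through which ATF4 acts, the C/EBP-ATF response element, has the core TGATGNAA, which reads TTNCATCA on the other strand. Promoter windows of RefSeq on GRCm38.p6, from 250 bases before to 50 after the start, were given for 32 members and searched on both strands. The core lay in 5 of them (15.62%), against 4.51% of the 27025 genes searched. All 5 are among the 8 ATF4-linked synthetases with a searched window, and 0 of the 24 other members searched had a match. The matches are shown because the levels of the ATF4-linked genes by library are described further on. Only the match nearest the start of each gene is given. Capitals mark the core, and 10 flanking bases stand on each side, read 5′ to 3′ on the gene's strand.
Aars, chr8:111033841-111033868: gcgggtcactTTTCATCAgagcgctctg
Gars, chr6:55037961-55037988: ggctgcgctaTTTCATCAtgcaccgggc
Iars, chr13:49682127-49682154: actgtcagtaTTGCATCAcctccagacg
Tars, chr15:11399656-11399683: aggagtcccgTTGCATCAgctggttagc
Yars, chr4:129189896-129189923: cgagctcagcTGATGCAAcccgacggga

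The cores of Gars and Tars begin 30 and 15 bases before the annotated start, and those of Iars, Yars and Aars begin 7, 3 and 9 bases after it. Tars lies on the minus strand and the other 4 genes on the plus strand. Eprs, Mars1 and Sars had a window without a match. The other 5 ATF4-linked genes (Cars, Lars, Nars, Vars and Wars) had no window in the search, so nothing is known of them here. A match is only a stretch of letters and was not tested as a binding site.

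**Figure D1:**
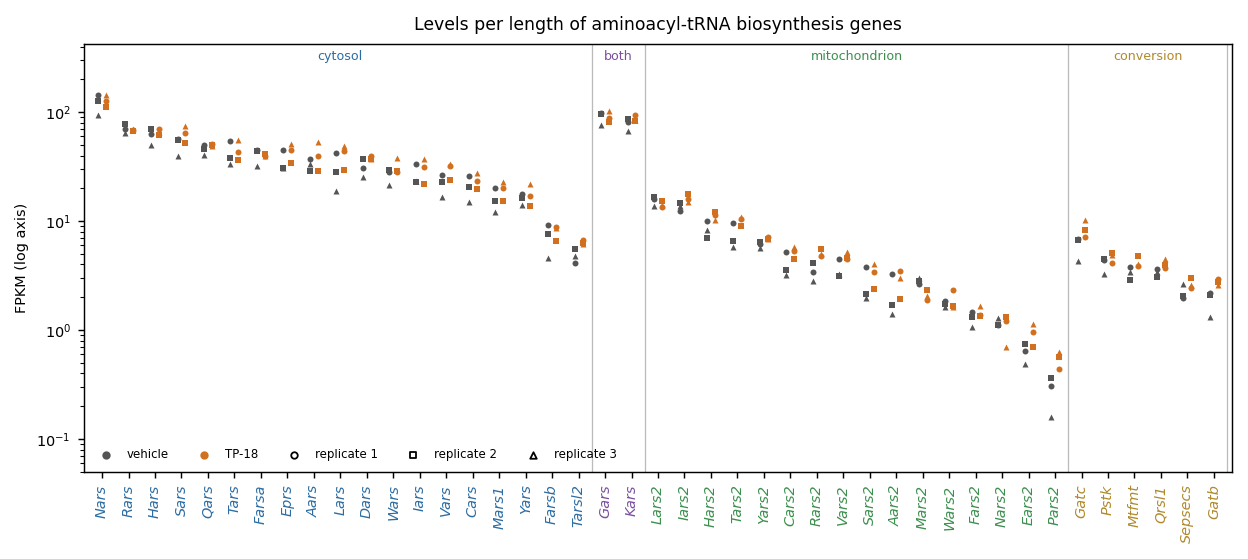
FPKM of 43 members in each of the 6 libraries (log axis), ordered by mean level within role; grey points are vehicle, orange points TP-18, and the marker shape gives the replicate. Cytosolic enzymes lie between mean levels of 5.61 and 125 FPKM and mitochondrial ones between 0.410 FPKM (Pars2) and the level of Lars2.

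Per length of transcript, cytosolic and shared enzymes stood well above mitochondrial and conversion enzymes. On the scale of deposited FPKM (counts scaled to gene length and library total), the cytosolic enzymes had a median over genes of 35.2 FPKM, Gars and Kars had 90.2 and 83.0 FPKM, the mitochondrial enzymes 3.43 FPKM and the conversion enzymes 3.75 FPKM, each from the mean of 6 libraries. Nars, which charges tRNA with asparagine, was the highest at 122 ± 25.9 FPKM in vehicle and 128 ± 15.8 FPKM in TP-18 libraries (SD, n = 3 each). Pars2, the mitochondrial prolyl enzyme, was the lowest at 0.276 ± 0.106 and 0.544 ± 0.0929 FPKM (SD, n = 3 each). By the mean of 6 libraries Lars2 was the most abundant mitochondrial enzyme, narrowly above Iars2. Lars2 had 15.6 ± 1.57 FPKM in vehicle and 14.4 ± 0.956 FPKM in TP-18 libraries (SD, n = 3 each). Iars2 had 13.6 ± 1.23 and 16.2 ± 1.46 FPKM (SD, n = 3 each). It lay below Lars2 with vehicle and above it with TP-18. In mean level the compartments met only at the ends of their ranges, where Farsb and Tarsl2 were the only cytosolic genes below the highest mitochondrial ones. The plot of FPKM by gene shows more overlap in single libraries. In TP-18 2, Yars had 13.8 FPKM and Mars1 15.4 FPKM, below Iars2 at 17.7 FPKM.

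Levels per length depend on the 1 length per gene that the authors used. For 8 members that length exceeds the number of distinct exonic bases in GENCODE M21, by up to 2.42 times (Farsb, 6337 against 2620 bases), so their FPKM may be understated. They are the mitochondrial Ears2, Fars2, Nars2, Rars2 and Wars2 and the cytosolic Farsb, Mars1 and Vars. How far this moves the gap between the compartments was not tested. Farsa and Farsb encode the alpha and beta subunits of 1 cytosolic phenylalanyl enzyme. Their FPKM ratio was 4.51 to 6.95 over the 6 libraries, while the ratio of their raw counts was 1.30 to 2.01. Comparisons of 1 gene between libraries do not depend on this length.

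The study's 1 contrast, TP-18 against vehicle, asks what the treatment changed in gene expression of the tumour-derived cells. No gene of tRNA charging passed: edgeR's quasi-likelihood test called 0 of 44 at an adjusted p of 0.05, where 0.11% of all 12721 tested genes were called (0.0236% higher and 0.0865% lower). DESeq2, limma-voom and limma on log2(FPKM + 1) also called 0 members. At an unadjusted p under 0.05 edgeR gave 1 member higher and 1 lower, the latter Mars2, where 7.56% of all genes were higher and 8.7% lower by that rule. These counts depended on the setting: they were 4 higher and 0 lower with library totals, 6 and 1 with limma on log2(FPKM + 1), and 1 and 3 without vehicle 3. Every TP-18 library lay above every vehicle library in 4 members (11.6% of all genes) and below in 3 members (11.7% of all genes), which is close to the share among all genes.

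The precision of these values was limited. In 21 of 44 members the 95% interval of the log2 fold change lay wholly within 1.5-fold in either direction: 12 of 19 cytosolic, 2 of 2 shared, 4 of 17 mitochondrial and 3 of 6 conversion genes. For the other 23 the interval reached beyond 1.5-fold. In simulated counts with the same design, 2 of 66 genes changed 1.5-fold and 18 of 66 changed 2-fold were called. The fold range within at least 1 group was wider than the fold change between groups in 42 of 44 members. Such a range spans the extremes of 3 libraries while the change averages them, and the share over all genes was not computed.

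**Figure D2:**
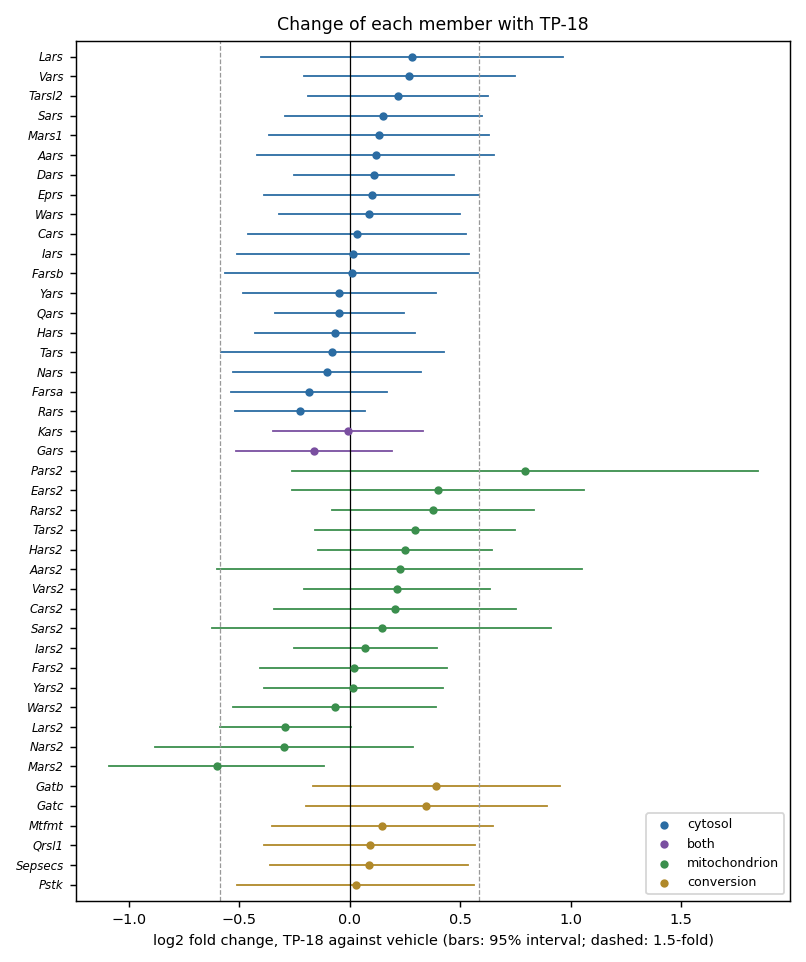
Log2 fold change of TP-18 against vehicle for 43 members (points) with its 95% interval from edgeR (bars), coloured by role; dashed lines mark 1.5-fold. Among the genes drawn only the interval of Mars2, from -1.09 to -0.11, leaves out 0, and the gene did not pass after adjustment over all genes.

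Mitochondrial synthetases charge the tRNAs that translate the few proteins made inside the mitochondrion, all parts of the respiratory chain or of ATP synthase. Their median log2 fold change was 0.21 over 17 genes, against 0.02 over all tested genes, with 13 of 17 above 0 where 52.6% of all genes were. This median was 0.35 without vehicle 1 and 0.07 without vehicle 3. It was 0.11 without vehicle 2 or TP-18 1, 0.24 without TP-18 2 and 0.13 without TP-18 3. With library totals in place of TMM factors, which moved the median of all genes from 0.02 to 0.20, it was 0.38.

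Rars2, the mitochondrial arginyl enzyme, had 10.9, 13.7 and 9.46 CPM in vehicle 1 to 3 and 13.9, 16.0 and 14.4 CPM in TP-18 1 to 3. The groups did not overlap, but vehicle 2 and TP-18 1 lay close together (log2 fold change 0.38 ± 0.20 (SE), edgeR adjusted p = 0.387). Pars2 had 0.983, 1.20 and 0.529 CPM in vehicle 1 to 3 and 1.29, 1.63 and 1.80 CPM in TP-18 1 to 3. Again no TP-18 library fell within the vehicle range, yet these rest on 8 to 33 counts per library, and the interval ran from -0.26 to 1.85 (log2 fold change 0.79 ± 0.45, edgeR adjusted p = 0.425). On GRCm38, Rars2 spans 34614957 to 34660167 on chromosome 4, and Pars2 spans 106651069 to 106655282 on the same chromosome, both as protein-coding genes.

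Mars2, the mitochondrial methionyl enzyme, had the smallest p among members with a negative log2 fold change. Its level was 7.93, 8.62 and 9.33 CPM in vehicle 1 to 3 and 5.18, 6.29 and 5.57 CPM in TP-18 1 to 3. The groups were apart, with a log2 fold change of -0.60 ± 0.21, an interval of -1.09 to -0.11 and an edgeR adjusted p = 0.241. Lars2, the mitochondrial leucyl enzyme, had 68.8, 73.9 and 61.5 CPM in vehicle 1 to 3 and 53.0, 59.6 and 54.3 CPM in TP-18 1 to 3. Every TP-18 value lay below every vehicle value (log2 fold change -0.29 ± 0.13, edgeR adjusted p = 0.316). Mars2 spans 55237177 to 55248470 on chromosome 1 and Lars2 spans 123366927 to 123462666 on chromosome 9, both protein-coding on the plus strand.

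**Figure D3:**
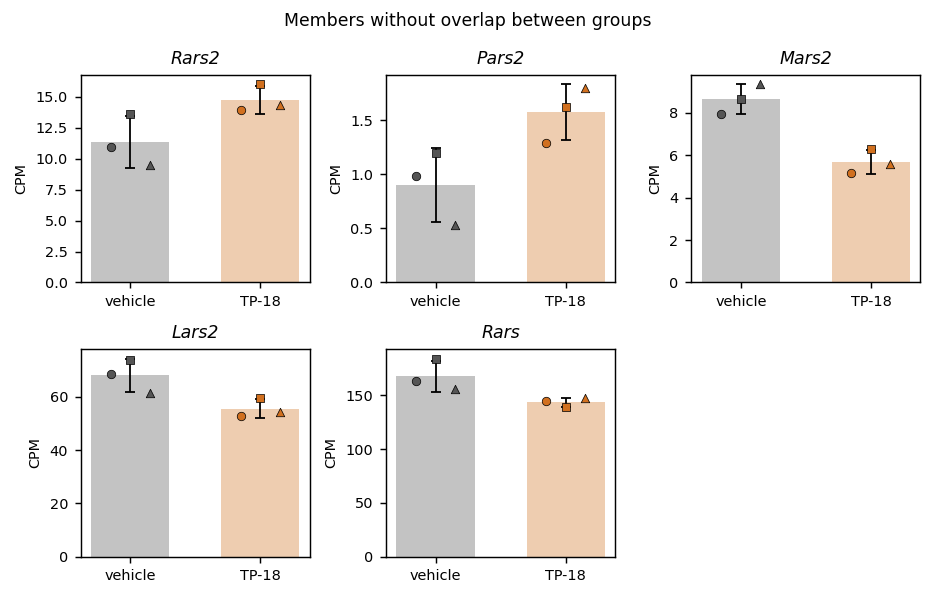
CPM of 5 members without overlap between groups; bars are means of 3 libraries, error bars are SD, and marker shapes give replicates 1 (circle), 2 (square) and 3 (triangle). Rars2 and Pars2 lie higher and Mars2, Lars2 and Rars lower with TP-18, and none of the 5 passed after adjustment.

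Other mitochondrial genes overlapped between groups. Their log2 fold changes ran from -0.30 for Nars2, which had 10.2 CPM in TP-18 3 and 17.8 to 21.4 CPM in the other 5 libraries, to 0.40 for Ears2. Ears2 charges the mitochondrial glutamate tRNA and also misloads the glutamine tRNA that is corrected afterwards. It had 5.10, 5.98 and 3.97 CPM in vehicle 1 to 3 and 6.85, 4.94 and 8.08 CPM in TP-18 1 to 3, so TP-18 2 lay within the vehicle range (edgeR adjusted p = 0.515). Yars2 varied least, at 10.3 ± 0.645 CPM with vehicle and 10.4 ± 0.318 CPM with TP-18 (SD, n = 3 each), with an interval of -0.39 to 0.42. Aars2 and Sars2, the alanyl and seryl enzymes, were both above 7 CPM in vehicle 1, TP-18 1 and TP-18 3 and below 7 CPM in the other 3 libraries.

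Conversion enzymes act after a tRNA has been loaded. Gatb, Gatc and Qrsl1 form the amidotransferase that turns glutamate into glutamine on the mitochondrial tRNA, Mtfmt formylates the initiator methionine, and Pstk and Sepsecs make selenocysteine on its tRNA. All 6 had log2 fold changes above 0, with TMM, RLE or library totals as scaling, and a median of 0.12, but 5 of 6 overlapped between groups and 0 passed. Without vehicle 1, vehicle 3 or TP-18 2 the count above 0 was 5. Gatb had 8.85, 8.62 and 5.49 CPM in vehicle 1 to 3 and 10.8, 9.98 and 9.39 CPM in TP-18 1 to 3 (log2 fold change 0.39 ± 0.24, edgeR adjusted p = 0.455). It was the 1 conversion gene without overlap. Gatc, in the same enzyme, had 12.6, 12.7 and 8.34 CPM in vehicle 1 to 3 and 12.1, 13.8 and 17.0 CPM in TP-18 1 to 3 (log2 fold change 0.35 ± 0.24, edgeR adjusted p = 0.495). Vehicle 3 was the lowest library for both subunits. Qrsl1, its catalytic subunit, had 7.07 ± 0.571 and 7.53 ± 0.642 CPM (SD, n = 3 each). Gatb spans 85574119 to 85655622 on chromosome 3 and Gatc spans 115333239 to 115341178 on chromosome 5. For Pstk 58.8% of the exonic bases are shared with Ikzf5 on the opposite strand. Whether counting used strand is not given in the sources used here, so its values are uncertain.

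Cytosolic synthetases showed no common shift. Their median log2 fold change was 0.03 over 19 genes, with values from -0.22 to 0.28, and 12 of 19 were above 0. The sign of the median rested on single libraries: it was -0.07 without vehicle 3, with 5 of 19 above 0, and -0.06 without TP-18 3, with 6 of 19. With library totals it was 0.20, the same as the median of all genes under that scaling.

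Rars, the cytosolic arginyl enzyme, was the 1 cytosolic gene without overlap. It had 163, 184 and 156 CPM in vehicle 1 to 3 and 144, 139 and 147 CPM in TP-18 1 to 3. The TP-18 values were lower and closely spaced (log2 fold change -0.22 ± 0.13, edgeR adjusted p = 0.42). Rars spans 35808381 to 35834506 on chromosome 11. Vars, the valyl enzyme, had 226, 200.2 and 148 CPM in vehicle 1 to 3 and 251, 184 and 259 CPM in TP-18 1 to 3, with TP-18 2 inside the vehicle range (log2 fold change 0.27 ± 0.21, edgeR adjusted p = 0.543). Nars had 391, 352 and 264 CPM in vehicle 1 to 3 and 313, 275 and 351 CPM in TP-18 1 to 3, so all TP-18 libraries lay within the vehicle range (log2 fold change -0.10 ± 0.18, edgeR adjusted p = 0.813). Tarsl2, a second threonyl enzyme and the least abundant cytosolic member per length, had 13.8, 19.1 and 16.4 CPM in vehicle 1 to 3 and 20.4, 18.7 and 18.3 CPM in TP-18 1 to 3 (log2 fold change 0.22 ± 0.18, edgeR adjusted p = 0.562).

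Gars and Kars, which charge glycine and lysine tRNAs in both compartments from 1 gene each, were among the most abundant members. Gars had 242, 245 and 197 CPM in vehicle 1 to 3 and 201, 183 and 227 CPM in TP-18 1 to 3 (log2 fold change -0.16, 95% interval -0.51 to 0.19). Kars had 197, 217 and 169 CPM in vehicle 1 to 3 and 211, 182 and 188 CPM in TP-18 1 to 3 (log2 fold change -0.01, 95% interval -0.35 to 0.33). Both intervals lay within 1.5-fold.

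The multisynthetase complex was measured in 8 enzymes and 3 scaffold genes. Over these 11 genes the median log2 fold change was 0.02, 6 lay above 0 and 0 passed. The scaffold genes are outside the KEGG term. Eef1e1 had 25.9 ± 3.84 CPM with vehicle and 22.1 ± 4.50 CPM with TP-18 (SD, n = 3 each), and Aimp1 had 107 ± 17.1 and 95.5 ± 9.53 CPM (SD, n = 3 each). Vehicle 2 was the highest library for all 3 scaffold genes.

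Tryptophanyl-tRNA synthetase, Wars, is also known as a gene induced by interferon gamma. It had 84.5, 89.8 and 66.2 CPM in vehicle 1 to 3 and 76.4, 77.3 and 102 CPM in TP-18 1 to 3, with overlap (log2 fold change 0.09 ± 0.18, edgeR adjusted p = 0.831). Of 9 tested interferon gamma genes edgeR called 0, with 4 lower and 0 higher at an unadjusted p under 0.05 (8.7% and 7.56% of all genes) and a median log2 fold change of -0.13. The receptor chain Ifngr2 had 63.2 ± 10.3 CPM with vehicle and 37.3 ± 7.48 CPM with TP-18 (SD, n = 3 each; edgeR adjusted p = 0.169), and the transcription factor Irf1 had 266 ± 19.9 and 191 ± 32.7 CPM (SD, n = 3 each; edgeR adjusted p = 0.238).

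Each cytosolic enzyme can be set against its mitochondrial counterpart for the same amino acid, which gives a ratio that no scaling of libraries can move. In all 17 such pairs the FPKM of the cytosolic gene was above that of the mitochondrial gene in every library, by 1.25 times (Iars over Iars2 in TP-18 2) to 206 times (Nars over Nars2 in TP-18 3). Nars2 is among the genes whose deposited length exceeds the exonic bases (15488 against 6967), and the raw count ratio of that pair and library was 34.6. Eprs, which charges glutamate and proline, enters with both Ears2 and Pars2. Between groups the ratio did not overlap in 3 pairs, each lower in TP-18, and overlapped in the other 14. Of the 3, 2 are given here. Rars over Rars2 was 20.7, 18.7 and 22.9 in vehicle and 14.4, 12.1 and 14.2 in TP-18 libraries. Tars over Tars2 was 5.65, 5.77 and 5.76 in vehicle and 4.11, 4.03 and 5.01 in TP-18 libraries. In the exact permutation test, two-sided, these 3 pairs had p = 0.1, the smallest that 3 against 3 allows, and an adjusted p = 0.425 over the 17 pairs. Mars1 over Mars2 had a higher mean with TP-18, at 7.60, 5.44 and 4.04 in vehicle and 10.7, 6.62 and 11.1 in TP-18 libraries, with overlap (exact permutation p = 0.2).

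**Figure D4:**
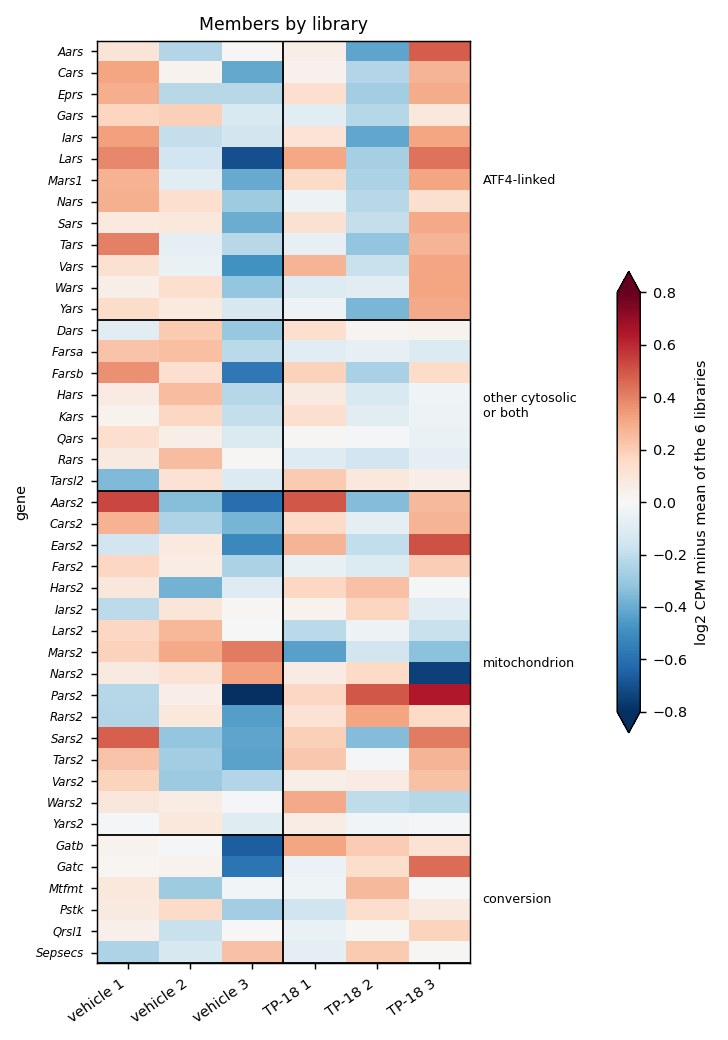
Log2 CPM minus the mean of the 6 libraries for 43 members (rows) in each library (columns); red is above and blue below the gene's mean, and rows are split into 13 ATF4-linked synthetases, 8 other cytosolic or shared ones, 16 mitochondrial ones and 6 conversion genes. Most ATF4-linked rows are blue in vehicle 3 and TP-18 2 and red in vehicle 1 and TP-18 3.

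The fold range within vehicle alone, from lowest to highest library, exceeded the fold change between groups in 41 of 44 members. The share over all genes was not computed, so this count shows nothing particular to the members. Vehicle 3 was the lowest library for 26 of 44 members, and TP-18 3 the highest for 16. Shares over all genes were not computed for the lowest or highest library either, here or in the lists below. For the 13 synthetases linked to ATF4 in general knowledge, the mean log2 CPM, taken from each gene's own mean, was 0.23, -0.03 and -0.29 in vehicle 1 to 3 and 0.07, -0.27 and 0.30 in TP-18 1 to 3. For each of these 13 genes vehicle 3 (7 genes) or TP-18 2 (6 genes) was the lowest library. In TP-18 3 they stood at a median of 1.48 times their level in TP-18 2, higher in 13 of 13, although both libraries had the same treatment. The same ratio had a median of 1.02 in the 8 other cytosolic or shared synthetases, 1.11 in the mitochondrial ones and 0.994 over all tested genes. Vehicle 1 over vehicle 3 gave a median of 1.43 in the ATF4-linked set (13 of 13 above 1), 1.18 in the other 8 (7 of 8) and 1.29 in the mitochondrial ones (14 of 17), where 50.8% of all tested genes were above 1. Both pairs of libraries are those in which the ATF4-linked mean was highest and lowest within its group. The choice of pairs therefore favoured wide ratios in the ATF4-linked set over the others. In vehicle 3 the mean log2 deviation was -0.21 in the other 8 and -0.26 in the mitochondrial set, so the low level there was shared by all 3 sets. Between groups the median log2 fold change of the ATF4-linked set was 0.09 and 9 of 13 lay above 0, but the median was -0.04 without vehicle 3 and -0.10 without TP-18 3.

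Aars, the alanyl enzyme, showed the widest spread within TP-18 among cytosolic genes. It had 245, 194 and 230 CPM in vehicle 1 to 3 and 237, 171 and 318 CPM in TP-18 1 to 3, and 1 TP-18 library was thus the highest of all and another the lowest. Iars had 156, 109 and 113 CPM in vehicle 1 to 3 and 134, 93.2 and 155 CPM in TP-18 1 to 3. Tars had 149, 107 and 96.2 CPM with vehicle and 107, 90.3 and 136 CPM with TP-18, and Yars had 44.4, 42.2 and 36.7 CPM and 38.9, 31.1 and 49.4 CPM. All 5 genes with the core, Gars among them, were lowest in TP-18 2. So were Eprs, whose window held no match, and Rars, outside the ATF4-linked set. For Aars 14.3% of the exonic bases are shared with Exosc6, so its count is less certain. Lars, the leucyl enzyme, varied most in vehicle among cytosolic genes, with 171, 118 and 80.5 CPM, and had 163, 109 and 178 CPM in TP-18 libraries. Qars, the glutaminyl enzyme outside the ATF4-linked set, stayed between 110.2 and 131 CPM in all 6 libraries. Farsb, also outside that set, was far less steady. Its vehicle libraries 1 to 3 held 60.3, 51.4 and 31.6 CPM, and its TP-18 libraries 1 to 3 held 53.3, 39.1 and 51.8 CPM. A wide spread between libraries was thus not confined to ATF4-linked genes. The sets were drawn up with earlier results of these data known, and these patterns carry no test.

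A list of ATF4 targets outside the term, which also holds Atf4 itself, gave a mixed picture. Of 23 tested, edgeR called 0 over all genes, and at an unadjusted p under 0.05 it gave 1 higher (Vldlr) and 6 lower, where 7.56% and 8.7% of all genes were. Atf4 was among the 6 lower. The median log2 fold change was 0.03, with 14 above 0. Atf4 itself had 610.2, 662 and 637 CPM in vehicle 1 to 3 and 507, 465 and 474 CPM in TP-18 1 to 3. The groups did not overlap, with all TP-18 values lower (log2 fold change -0.40 ± 0.12, edgeR adjusted p = 0.219). Cebpb, a transcription factor that pairs with ATF4, had 317 ± 34.3 CPM with vehicle and 193 ± 12.9 CPM with TP-18 (SD, n = 3 each; edgeR adjusted p = 0.13). The glutathione-degrading enzyme Chac1 had 13.2 ± 3.46 and 7.46 ± 1.07 CPM (SD, n = 3 each; edgeR adjusted p = 0.21).

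Asns and Shmt2, of amino acid supply, overlapped between groups. Asns, which makes asparagine, had 161, 144 and 108 CPM in vehicle 1 to 3 and 114, 73.9 and 150 CPM in TP-18 1 to 3 (chosen after its values were seen). Shmt2, of serine metabolism in mitochondria and likewise chosen, had 173, 131 and 79.9 CPM with vehicle and 147, 86.7 and 200.2 CPM with TP-18. Both were low in vehicle 3 and TP-18 2, the libraries in which the ATF4-linked synthetases were low. Of the 23 genes of that list, 6 were lowest in vehicle 3 and 10 in TP-18 2. Others went the opposite way, with Sesn2 and Slc3a2 highest in vehicle 3 and Ddit4 and Vldlr highest in TP-18 2. As a list the 23 genes, Atf4 included, were read as mean log2 CPM from each gene's own mean. They stood at 0.13, 0.14 and -0.15 in vehicle 1 to 3 and at -0.05, -0.26 and 0.21 in TP-18 1 to 3.

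**Figure D5:**
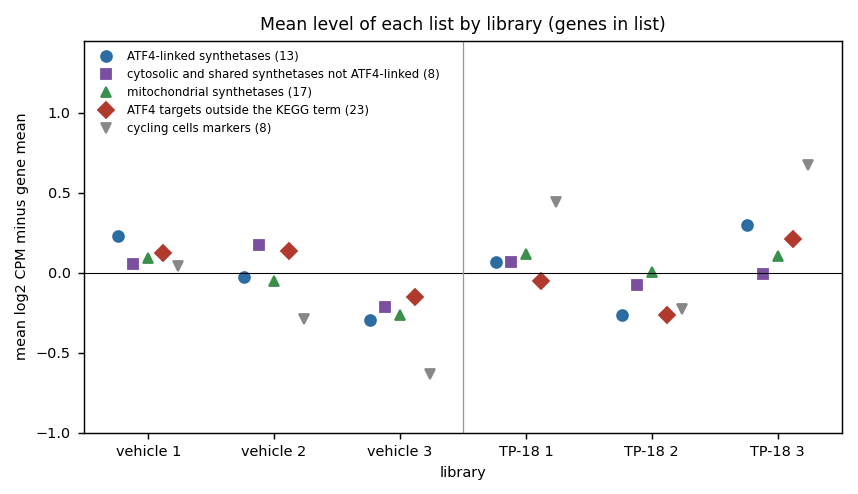
Mean over genes of log2 CPM minus each gene's mean (vertical axis) in each library (horizontal axis). Shown are 3 sets of synthetases, ATF4 targets outside the term (Atf4 included) and markers of cycling cells, with the number of genes in brackets. The ATF4-linked synthetases run from -0.29 in vehicle 3 to 0.30 in TP-18 3, while the 8 other cytosolic or shared synthetases stay between -0.21 and 0.18.

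Markers of cycling cells were also low in vehicle 3 and high in TP-18 3. All 8 were tested, each was highest in TP-18 3 and 7 were lowest in vehicle 3, and their mean log2 deviation was 0.04, -0.29 and -0.63 in vehicle 1 to 3 and 0.44, -0.23 and 0.67 in TP-18 1 to 3. Their summed level was 729 to 1117 CPM with vehicle and 886 to 1686 CPM with TP-18. Fibroblast markers, 7 of 7 tested, had a summed level of 739.5 to 1197 CPM with vehicle and 1476 to 1830.3 CPM with TP-18, without overlap. The summed level of 5 endothelial markers was 32.6 to 161 CPM and 96.3 to 174 CPM. Of T and NK cell markers 7 of 8 were tested, with sums of 3.78 to 19.2 CPM and 3.74 to 17.3 CPM, and Ncr1 had 10 counts in all. Neutrophil markers (5 of 8 tested) summed to 51.9 to 125 and 49.9 to 98.0 CPM, and B cell markers (2 of 4) to 1.13 to 3.93 and 2.39 to 8.19 CPM. Skeletal muscle markers (4 of 4) summed to 42.5 to 73.4 CPM in vehicle, 54.0 CPM in TP-18 1, and 10.9 and 9.50 CPM in TP-18 2 and 3. The part of these cells in the members' values was not tested.

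Other steps around tRNA charging were read from lists of related genes. A list of 11 genes covered GCN2, which senses uncharged tRNA, and the eIF2 and eIF2B subunits downstream of it, among others. Of these 11 edgeR called 0, and 0 had an unadjusted p under 0.05 (median log2 fold change -0.11). Eif2b2 had 46.4 ± 3.98 and 39.1 ± 4.70 CPM (SD, n = 3 each; edgeR adjusted p = 0.43), and Eif2b3 had 32.4 ± 4.14 and 27.8 ± 2.30 CPM (SD, n = 3 each; edgeR adjusted p = 0.51). Of 9 elongation factors that carry charged tRNA to the ribosome or move it through, edgeR called 0, with 2 lower at an unadjusted p under 0.05 (8.7% of all genes; median log2 fold change -0.03). Eef1b2, the exchange factor of eEF1A, had 1380.3 ± 257 CPM with vehicle and 975 ± 82.4 CPM with TP-18 (SD, n = 3 each; edgeR adjusted p = 0.231). Eef1a1 itself had 13290.0 ± 860.2 and 10825 ± 785 CPM (SD, n = 3 each; edgeR adjusted p = 0.295), and many near-identical pseudogenes make its count uncertain. Of 21 genes of proofreading and tRNA maturation edgeR called 0, and 0 had an unadjusted p under 0.05 (median log2 fold change -0.02). Rpp38, a protein of RNase P, had 5.56 ± 0.853 and 3.89 ± 0.205 CPM (SD, n = 3 each; edgeR adjusted p = 0.351). Tsen34, a subunit of the tRNA splicing endonuclease, had 50.2 ± 8.76 and 60.6 ± 0.708 CPM (SD, n = 3 each; edgeR adjusted p = 0.418).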

How the data were processed

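The authors' deposited tables hold raw counts and FPKM for each gene. HTSeq, HISAT2 and fastp are named with build GRCm38, per the submitters' processing notes. Their versions and the annotation release are not given in the sources used here. Each deposited FPKM is a count divided by the library total and by a single gene length, checked to within 1% on all 17191 genes. The count test was edgeR 4.0.16 under R 4.3.3, with filterByExpr (minimum count 10, minimum total 15), TMM factors, the quasi-likelihood test without covariates, and Benjamini-Hochberg adjustment over all 12721 tested genes at 0.05. SE is the absolute log2 fold change over the root of the F statistic. The 95% intervals use the fit's total degrees of freedom. The test was first tested on simulated data. Alternatives were RLE factors, library totals, DESeq2 1.42.0, limma-voom and limma 3.58.1 on log2(FPKM + 1), other filters, a replicate block and each library left out. Positions and overlaps come from GENCODE M21 on GRCm38. Figures were drawn with matplotlib 3.10.9.

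The members and gene lists were chosen with earlier results of these data known. Values in every library are given for the 3 members with the smallest p in each direction, and in each role for the most and least abundant member and the 2 with the smallest p. A few items, 1 member gene among them, are not reported here. In lists outside the term the 2 genes with the smallest p are named. Any other gene was named after its values were seen.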

Additional observations from a re-analysis of the deposited data

How the results depend on the processing

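No member was called under any alternative, and the smallest adjusted p among members ran from 0.133 (DESeq2) to 0.566 (without TP-18 1). Over all genes, where 3 were called higher and 11 lower, DESeq2 called 159 and 338, a filter of a summed count of at least 1 gave 7 and 20, and limma on FPKM gave 1 and 1. Library totals gave 1 lower. Leaving out 1 library gave 0 to 3 higher and 0 to 5 lower. The median of all members was 0.09, and 0.27 with library totals, which moved all genes alike. It was -0.02 without vehicle 3, where 20 of 44 members were above 0 against 31. The mitochondrial median of 0.21 was 0.38 with library totals and 0.071 to 0.35 with 1 library left out.

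Of the 13 members named by rule, 10 kept their direction in every alternative. Gars, Kars and Nars, all near 0, did not. With library totals they were 0.015, 0.17 and 0.073, and with limma on FPKM 0.018, 0.17 and 0.088. Leaving out 1 library gave -0.11 to 0.064 for Kars, which was above 0 without vehicle 2, TP-18 2 or TP-18 3.

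Libraries of the 2 groups share replicate numbers, but nothing in the labels pairs them, and deviations of same-numbered libraries correlated at 0.161, 0.39 and -0.152. With a replicate block 3 genes were higher and 0 lower, and 0 members were called (smallest adjusted p = 0.27).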
